A study of Mus musculus with 6 samples.

Results

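Pitx1, Lhx3, Lhx4, Hesx1, Pou1f1, Pomc, Cga and Tbx19 were followed as transcripts of the pituitary and of the oral ectoderm from which its anterior lobe forms. These 8 genes were chosen by symbol out of the 24444 symbols of the deposited table, with the difference between the genotypes already known, so their own differences are given as a description, with no p-value, and nothing is read from whether they passed a threshold. The libraries were poly(A) RNA-seq of embryonic telencephalon, which gives rise to cortex and basal ganglia, from C57BL/6J mice at E12.5 (days of gestation). Libraries from 3 samples were labelled Arl13b-/- (called Arl13b-null 1 to 3) and 3 Wild-type. Arl13b codes for a ciliary GTPase, and the study asked how neuronal cilia act on axon tracts. The labels name no allele and do not say whether each library came from 1 embryo or from separate litters, so each p-value reflects the spread among the libraries, which may be technical.

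The anterior pituitary arises from Rathke's pouch, a fold of oral ectoderm that lies under the floor of the diencephalon and outside the telencephalon. Pitx1, a bicoid-type homeodomain factor, marks oral ectoderm and the pouch, and Hesx1, Lhx3 and Lhx4 act in the pouch as it forms. Tbx19 then drives the corticotrope lineage, which makes the hormone precursor encoded by Pomc, and Pou1f1 drives the somatotrope, lactotrope and thyrotrope lineages, whereas Cga encodes the subunit shared by the glycoprotein hormones. Several of these genes are also used elsewhere: Pitx1 in jaw and hindlimb mesenchyme, Lhx3 and Lhx4 in motor neurons and V2 interneurons, Hesx1 in the early anterior forebrain, and Pomc in neurons of the arcuate nucleus of the hypothalamus.

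Arl13b-null 2 and Wild-type 1 stood apart from the other 4 libraries, and each list and each of the members kept is given both over all 6 libraries and over the other 4. Pearson correlations across genes, which are not independent replicates, lay between 0.985 and 0.995 among the 4, between 0.702 and 0.722 for Arl13b-null 2 with them and between 0.880 and 0.898 for Wild-type 1. Normalized counts, obtained by inverting the authors' variance-stabilising transformation, summed to 27477381 to 36179948 per library. A single read was worth 0.729, 1.31 and 0.616 normalized counts in Arl13b-null 1 to 3 and 0.536, 0.662 and 0.787 in Wild-type 1 to 3, from which 27565022 to 51663114 reads per library were estimated. A gene listed at 0 could thus have up to 3 reads, or 1.61 to 3.94 normalized counts, within counting error. Arl13b itself had 492, 532 and 564 normalized counts in Arl13b-null 1 to 3, against 661, 553 and 560 in Wild-type 1 to 3, so its transcript does not check the labels. Among the 4 remaining libraries the genotypes also differed in sex-linked transcripts, with 16292 and 19017 normalized counts of Xist in Arl13b-null 1 and 3, against 26.5 and 213 in Wild-type 2 and 3, and genotype and sex cannot be told apart there. A list of 11 telencephalic genes summed to 27305, 38814 and 14215 normalized counts in Arl13b-null 1 to 3, against 34375, 35103 and 46108 in Wild-type 1 to 3, and Emx1, which marks the cortex, had 145, 2641 and 25.0 against 633, 875 and 1161 in the same order, so Arl13b-null 3 was lowest for both.

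Pomc, Pitx1 and Lhx4 were measured above traces in at least 5 libraries, Lhx3 exceeded 3 reads clearly in 3 libraries, and Cga, Tbx19, Pou1f1 and Hesx1 were at or under 3 reads in at least 5 of the 6. A filter that kept genes whose mean variance-stabilised value, on a log2 scale, was at least 1 above the lowest value of the table passed 3 of the 8. Lhx4 lay just inside it, at 1.03 above the lowest value, and the nearest member outside was Lhx3, at 0.41. Per kilobase of exon sequence, the median over the 6 libraries was 56.8 normalized counts for Pomc (47.2 to 91.8), 24.4 for Pitx1 (0 to 90.2) and 4.41 for Lhx4 (0 to 7.49), and the ranges of these neighbours in the order overlapped. The medians of Lhx3 and Cga were 1.13 and 0.70 normalized counts per kilobase, and those of Hesx1, Pou1f1 and Tbx19 were 0. Of the 8 genes, 6, 2 and 6 had any read in Arl13b-null 1 to 3, against 7, 5 and 4 in Wild-type 1 to 3. In bulk tissue, fewer cells of a type and less RNA per cell cannot be told apart.

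**Figure D1:**
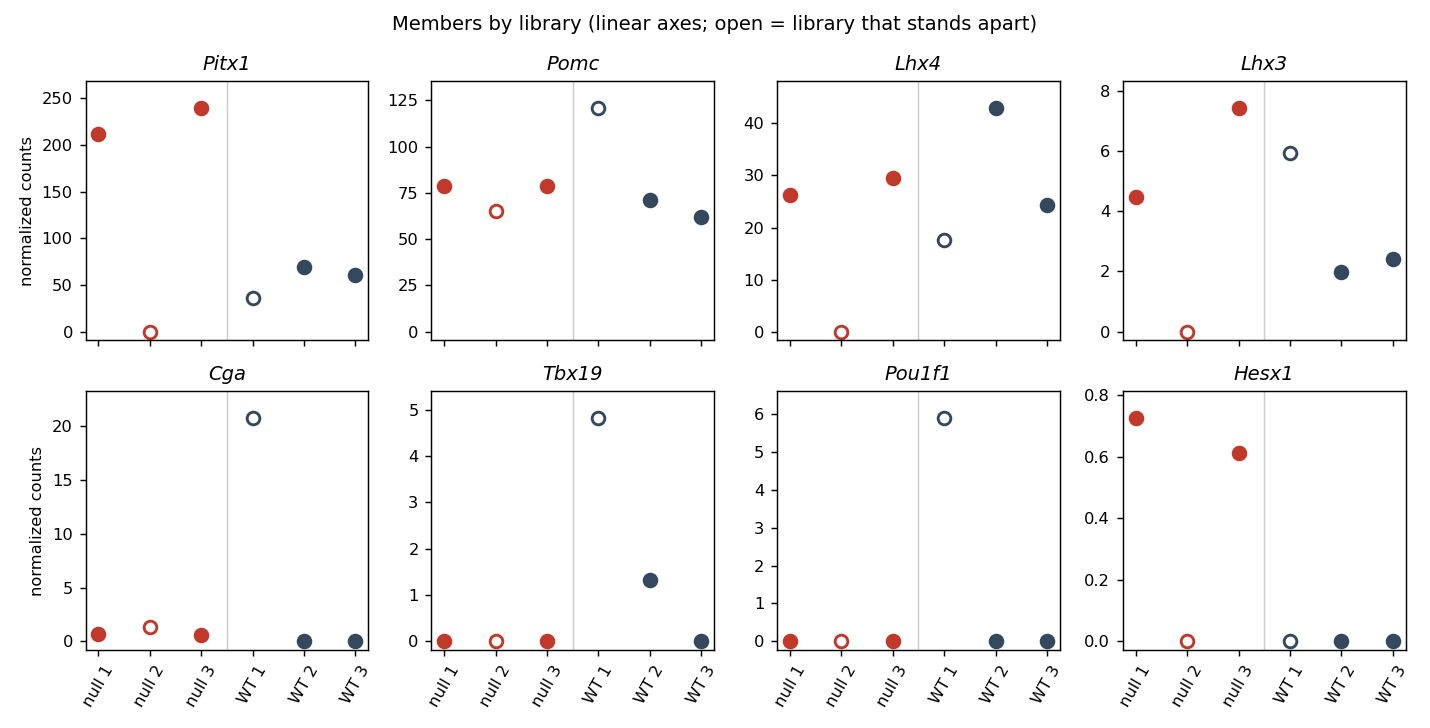
Normalized counts of the 8 genes in each library on linear axes, one panel per gene, with Arl13b-null libraries (red) left of Wild-type libraries (dark blue) and open circles for Arl13b-null 2 and Wild-type 1. Pitx1 reached 212 and 240 normalized counts in Arl13b-null 1 and 3, whereas Cga, Tbx19 and Pou1f1 were highest in Wild-type 1.

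Pitx1 had the widest difference of the 3 members kept over the 4 libraries without Arl13b-null 2 and Wild-type 1, with more transcript in Arl13b-null. It had 212, 0 and 240 normalized counts in Arl13b-null 1 to 3, against 35.4, 69.0 and 60.8 in Wild-type 1 to 3. Both Arl13b-null 1 and 3 were above all 3 Wild-type libraries, and Arl13b-null 2 was below all of them, so the groups of 3 overlapped. In reads, these values corresponded to 291 and 389 in Arl13b-null 1 and 3, against 66.1, 104 and 77.2 in Wild-type 1 to 3. Without Arl13b-null 2 and Wild-type 1, the mean was 226 ± 19.5 normalized counts in Arl13b-null and 64.9 ± 5.80 in Wild-type (SD, n = 2 each), a ratio of 3.48. On the variance-stabilised log2 scale, which compresses low genes, the difference was 1.22 ± 0.10 (SE) over these 4 libraries and 0.35 ± 0.88 over all 6, where leaving out Arl13b-null 1 or Arl13b-null 3 turned it to −0.13 or −0.20.

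Ranked by this difference, Pitx1 was number 18 of the 14249 genes tested over 4 libraries. It was also among the 10 genes that passed as higher there (limma, Benjamini-Hochberg adjusted p under 0.05), and the background share of such genes was 0.0702%. The call was lost with no filter and with no mean-variance trend. Since the member was taken with that contrast in view, nothing is read from its call. Over 6 libraries 0 of the 3 members kept passed, against a background of 0%. Leaving out Wild-type 2 or Wild-type 3 ended the Pitx1 call (differences 1.27 and 1.17) and gave 6 or 17 genes past the threshold over 4 libraries in place of 36, while leaving out Arl13b-null 1 or 3, which leaves 1 Arl13b-null library, assumed to vary like the Wild-type pair, gave 725 or 78. In Wild-type 1, the other library with abundant Xist (15101 normalized counts), Pitx1 was at 35.4, its lowest value outside Arl13b-null 2. Arl13b-null 2 had 244 normalized counts of Xist and 0 of the Y-linked Ddx3y, with Pitx1 at 0. Both libraries stood apart from the other 4, and the part of sex in the Pitx1 values was not tested.

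Lhx4 and Lhx3, LIM-homeodomain paralogues that act in growth of the pouch, were low. Lhx4 had 26.2, 0 and 29.5 normalized counts in Arl13b-null 1 to 3, against 17.7, 43.0 and 24.4 in Wild-type 1 to 3. Its 2 detected Arl13b-null values lay inside the Wild-type range, and the difference was −0.10 ± 0.15 (SE) over 4 libraries and −0.40 ± 0.40 over 6. Lhx3 had 4.47, 0 and 7.43 normalized counts in Arl13b-null 1 to 3, against 5.93, 1.96 and 2.40 in Wild-type 1 to 3, or 12.1 reads at most. Arl13b-null 1 and 3 were above Wild-type 2 and 3 for Lhx3, but Wild-type 1 lay between them. Hesx1, a repressor of the early pouch and anterior forebrain, had 1 read each in Arl13b-null 1 and 3 (0.727 and 0.614 normalized counts) and 0 in Arl13b-null 2 and in the 3 Wild-type libraries, all within the limit of 3 reads.

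The proximal promoter sequences of Pomc, Cga and Tbx19 are shown because each holds TAATTA, the core recognised by LIM-homeodomain factors such as Lhx3 and Lhx4. They are RefSeq GRCm38.p6 sequences of the 250 bases before the annotated start, 5′ to 3′ on the gene's strand, at chr12:3954695-3954944 (+) for Pomc, chr4:34893529-34893778 (+) for Cga and chr1:165160774-165161023 (−) for Tbx19, whereas the expression table rests on another build. Capitals mark TAATTA and the TATA box motif TATAAA.
Pomc: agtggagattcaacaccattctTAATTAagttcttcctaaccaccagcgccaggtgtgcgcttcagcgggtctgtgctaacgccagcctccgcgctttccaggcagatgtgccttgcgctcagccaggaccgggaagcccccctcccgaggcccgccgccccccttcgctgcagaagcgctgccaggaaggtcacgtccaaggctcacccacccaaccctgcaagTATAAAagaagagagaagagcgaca
Cga: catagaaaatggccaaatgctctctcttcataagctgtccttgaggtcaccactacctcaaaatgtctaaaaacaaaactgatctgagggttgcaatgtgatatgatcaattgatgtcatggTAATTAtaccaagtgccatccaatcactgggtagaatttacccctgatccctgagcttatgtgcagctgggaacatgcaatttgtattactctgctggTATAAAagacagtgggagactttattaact
Tbx19: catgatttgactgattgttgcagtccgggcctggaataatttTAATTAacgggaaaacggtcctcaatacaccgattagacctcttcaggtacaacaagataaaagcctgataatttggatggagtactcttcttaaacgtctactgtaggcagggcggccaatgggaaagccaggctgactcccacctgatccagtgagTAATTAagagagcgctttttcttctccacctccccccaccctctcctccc
TAATTA, its own reverse complement, began 228 bases before the start in Pomc, 128 in Cga, and 208 and 50 in Tbx19. TATAAA, searched on both strands, began 25 bases before the start in Pomc and 30 in Cga. Of 32851 such windows over the genome, 4.84% held TAATTA and 12.4% held TATAAA. Windows were found for 7 of the 8 genes, 9 windows in all, and TAATTA was in those of 3 genes and TATAAA in those of 4. The bicoid-type Pitx motif TAATCC (6.25% of windows) and the T-box motif TCACACC (3.33%), both searched on both strands, were not among the letters of the 9 windows. The motifs overlapped in no window shown, and a match is a description of the sequence and not a bound site.

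Pomc, the precursor of adrenocorticotropic and melanocyte-stimulating hormones, was measured in every library. It had 78.7, 65.1 and 78.5 normalized counts in Arl13b-null 1 to 3, against 121, 71.3 and 62.2 in Wild-type 1 to 3. Wild-type 1 was the highest and the Arl13b-null values lay within the Wild-type range. The difference was 0.14 ± 0.10 (SE) over 4 libraries, where Arl13b-null 1 and 3 were above Wild-type 2 and 3, and −0.093 ± 0.24 over 6. Pomc was 1 of 2 members of the 3 kept whose groups did not overlap over 4 libraries, Pitx1 being the other, both with Arl13b-null higher, against 29.3% of all genes tested (47.5% in either direction). Over 6 libraries the groups overlapped for all 8 members, against a background of 4.67% without overlap and Arl13b-null higher and 3.59% with Arl13b-null lower. Arl13b-null 2, where Pitx1, Lhx3, Lhx4, Hesx1, Pou1f1 and Tbx19 were at 0, still held 49.6 reads of Pomc. The median difference of the 3 members kept was 0.14 over 4 libraries and −0.093 over 6, beside 0.023 and 0.0026 for all genes tested.

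Unlike Pomc, which had reads in every library, Cga, Pou1f1 and Tbx19 had most of their reads in Wild-type 1. Cga, the glycoprotein hormone alpha subunit, had 0.725, 1.35 and 0.611 normalized counts in Arl13b-null 1 to 3, or 1 read each, against 20.8, 0 and 0 in Wild-type 1 to 3, or 38.8 reads in Wild-type 1. Pou1f1 had 0 in the 3 Arl13b-null libraries, against 5.91, 0 and 0 normalized counts in Wild-type 1 to 3, or 11 reads in Wild-type 1. Tbx19 had 0 in the 3 Arl13b-null libraries, against 4.83, 1.32 and 0 normalized counts in Wild-type 1 to 3, or 9.0 and 2.0 reads in Wild-type 1 and 2. For each of these 3 genes Wild-type 1 was the 1 library above 3 reads, and without it both genotypes were at or under that limit.

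Of the hormone genes outside the 8, growth hormone (Gh) and prolactin (Prl) had reads in Wild-type 1 only, 15 and 6.02. The thyrotropin beta subunit (Tshb), which pairs with the Cga product, had 20.9 reads in Wild-type 1 and 1 read (0.96) in Arl13b-null 2. Lhb, the luteinising hormone beta subunit, did not follow them, with 0, 3.09 and 0 reads in Arl13b-null 1 to 3, against 5.91, 4.95 and 2.94 in Wild-type 1 to 3, and Fshb, the follicle-stimulating hormone beta subunit, was at 0 in all 6. Nr5a1, a factor of gonadotropes and of the ventromedial hypothalamus, had 25.1, 0 and 29.0 reads in Arl13b-null 1 to 3, against 72.1, 67.1 and 6.99 in Wild-type 1 to 3, with reads in 5 of the 6 libraries. Together Cga, Tshb, Gh, Pou1f1, Tbx19 and Prl, a group of 6 chosen after their values were seen, had 0.99, 1.99 and 0.99 reads in Arl13b-null 1 to 3, against 101, 2.0 and 0 in Wild-type 1 to 3. In the same library Pitx1 and Lhx4 were the lowest of the Wild-type values and Pomc the highest. Wild-type 1 also carried the most surface ectoderm RNA, with a sum of 20628 normalized counts over 20 epithelial genes, against 5909 and 2636 in Wild-type 2 and 3, and 14612 over 10 genes of dividing cells, against 59714 and 64846. The part of these features in the pituitary reads was not tested.

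**Figure D2:**
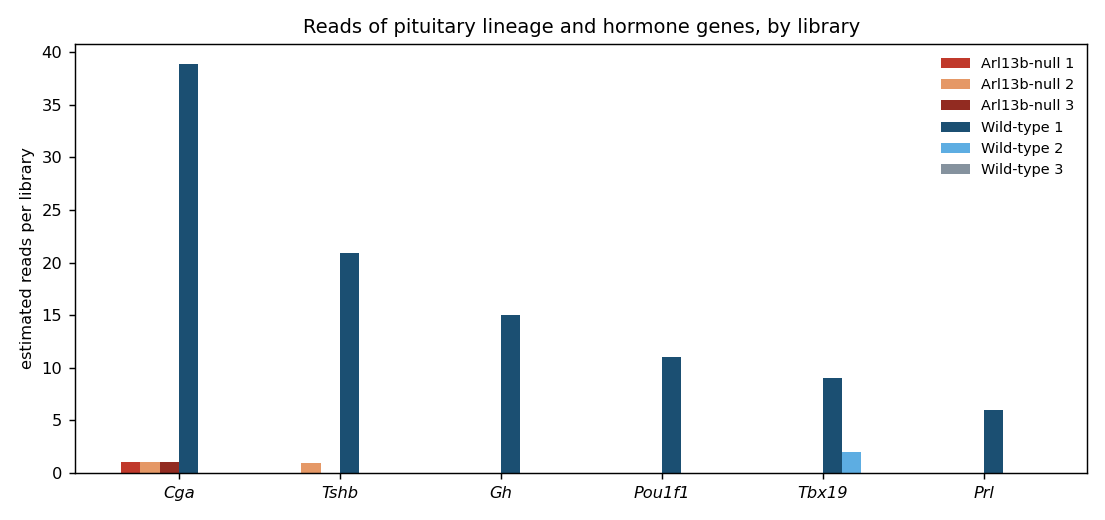
Estimated reads, on the y axis, of 6 pituitary lineage and hormone genes in each library, with the 3 Arl13b-null libraries left of the 3 Wild-type libraries in each group of bars. Wild-type 1 reached 38.8 reads for Cga and 20.9 for Tshb, and no other library exceeded 2.0 reads for any of the 6.

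None of the listed transcription factors of pituitary development passed the threshold in either comparison. Of 14 factors, 12 passed the filter, of which 9 were above and 3 below 0 with a median difference of 0.23, and 0 were called, where limma called 0.253% of all genes. An unadjusted p under 0.05 was reached by 5 of the 12, against 14.4% of all genes over 4 libraries. Neurod4, a bHLH factor of endocrine and neural precursors, differed by 0.62 ± 0.12 (SE), Insm1, a zinc-finger factor of endocrine differentiation, by 0.30 ± 0.064, and Otx2, a homeodomain factor of the anterior head, by 0.40 ± 0.11. Insm1 had 5158 and 5550 normalized counts in Arl13b-null 1 and 3 and 4507 and 4147 in Wild-type 2 and 3. Pitx1 had at most 240 in any library, and which cells held the Insm1 transcript was not tested. Eya1, a transcriptional cofactor of the pouch and placodes, differed by −0.55 ± 0.12 over 4 libraries and −0.81 ± 0.38 over 6. The limma adjusted p over 4 libraries was between 0.123 for Neurod4 and 0.210 for Otx2, and over 6 libraries Neurod4, Insm1 and Otx2 lay below 0. Six6, which acts in pituitary, hypothalamus and eye, had 39.5, 0 and 47.6 normalized counts in Arl13b-null 1 to 3, against 85.0, 77.0 and 4.74 in Wild-type 1 to 3, so its Wild-type values spread more widely than the genotypes differed. Gata2, a factor of gonadotropes and thyrotropes that is also used in the midbrain and diencephalon, had 995, 2.62 and 1186 normalized counts in Arl13b-null 1 to 3, against 286, 980 and 885 in Wild-type 1 to 3. Over 6 libraries 1 factor was above and 11 below 0, with a median of −0.70 and 0 called (0 at an unadjusted p under 0.05), and Six6, Nr5a1 and Otx2 were among those at 0 in Arl13b-null 2.

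Hormone receptor and processing genes showed no called difference. Of 14 genes of this list, which includes the hormones above, 6 passed the filter, with a median of 0.047 over 4 libraries and 0.0054 over 6, and 0 were called in limma in either (2 and 0 at an unadjusted p under 0.05). Drd2, the dopamine receptor of lactotropes and of neurons, differed by 0.28 ± 0.099 (SE) and Pcsk2, which cleaves the Pomc product, by 0.18 ± 0.073 over 4 libraries (limma adjusted p = 0.30 and 0.347), and Drd2 lay below 0 over 6. Crhr1, the receptor through which corticotropes respond to corticotropin-releasing hormone and which neurons also express, named after its values were seen, had 23.4, 1074 and 19.7 normalized counts in Arl13b-null 1 to 3, against 160, 21.2 and 24.4 in Wild-type 1 to 3. Crhr1 was thus high in the library in which the pouch factors were at 0. That library, Arl13b-null 2, also had the highest sum over the 8 pan-neuronal genes, 517356 normalized counts, against 131990 to 229681 elsewhere. The part of neuronal RNA in the Crhr1 values was not tested.

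Genes of oral and dental ectoderm, the tissue that Pitx1 marks, lay on the other side of 0 from Pitx1. Of 11 genes 8 passed the filter, of which 1 was above and 7 below 0 over 4 libraries, with a median of −0.62, and all 8 were below 0 over 6, with a median of −1.17. None passed the limma threshold. An unadjusted p under 0.05 was reached by 5 of the 8 over 4 libraries and 4 of the 8 over 6, against 14.4% and 1.14% of all genes. Wnt10a and Wnt10b, ligands of dental epithelium, differed by −1.08 ± 0.13 and −1.11 ± 0.16 (SE) over 4 libraries (limma adjusted p = 0.0676 and 0.0743) and by −1.26 ± 0.32 and −1.43 ± 0.25 over 6 (0.990 for each). Wnt10a had 14.5, 0 and 12.9 normalized counts in Arl13b-null 1 to 3, against 48.6, 89.1 and 63.6 in Wild-type 1 to 3, and Wnt10b had 6.55, 0 and 1.84 against 83.4, 55.5 and 39.3 in the same order. The groups of 3 did not overlap for either gene, as for 8.26% of all genes over 6 libraries. Dlx3, a homeodomain factor of the ectodermal appendages, differed by −0.63 ± 0.18 over 4 libraries (limma adjusted p = 0.237) and by −1.12 ± 0.36 over 6 (0.990). Summed over the 11 genes, the list had 1256, 26.3 and 1484 normalized counts in Arl13b-null 1 to 3, against 1591, 1778 and 1460 in Wild-type 1 to 3. Foxe1 and Fgf20 were both at 0 in Arl13b-null 1 and 2 and in Wild-type 2 and 3.

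**Figure D3:**
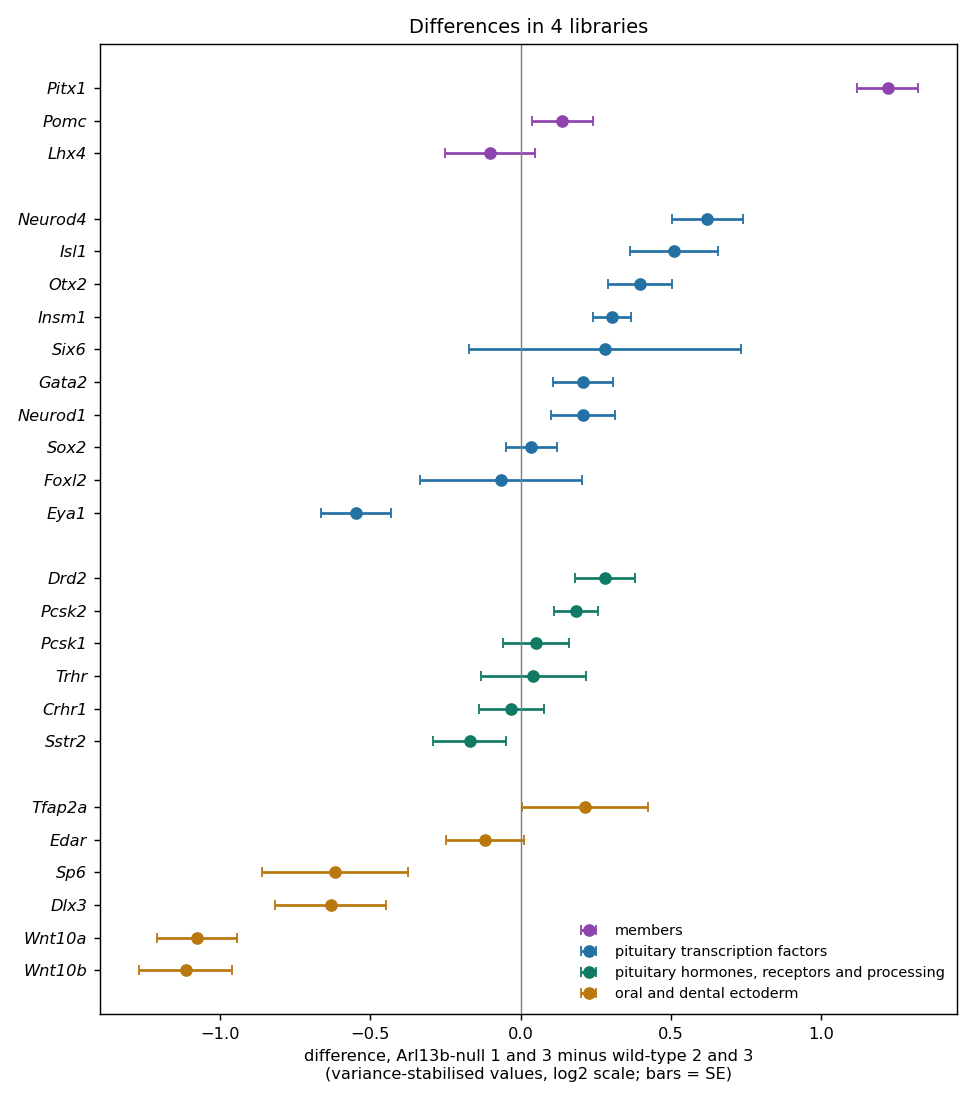
Difference of variance-stabilised values on the log2 scale, Arl13b-null 1 and 3 minus Wild-type 2 and 3, for the 3 members that passed the filter and for genes of 3 lists (points, with SE as bars). Pitx1 lies at 1.22, the pituitary factors lie between −0.55 and 0.62, and 5 of the 6 oral and dental ectoderm genes drawn lie below 0.

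Lists of neighbouring tissues gave 0 called genes in either comparison. In the surface ectoderm all 20 genes were below 0 over 4 and over 6 libraries, with medians of −1.52 and −2.02, where 5865 and 7090 of all 14249 genes were below 0. An unadjusted limma p under 0.05 was reached by 17 over 4 libraries and 15 over 6, against 14.4% and 1.14% of all genes. The list summed to 1142, 249 and 422 normalized counts in Arl13b-null 1 to 3, against 20628, 5909 and 2636 in Wild-type 1 to 3, and Krt14 was at 0 in Arl13b-null 3. Over 4 libraries Perp differed by −1.93 ± 0.34 (SE), Sfn by −2.05 ± 0.36 and Krt19 by −1.81 ± 0.34, genes of epithelial adhesion, growth control and cytoskeleton (limma adjusted p between 0.113 and 0.123). Spint1 (−1.57 ± 0.30), Cldn4 (−2.03 ± 0.48), Krt8 (−2.49 ± 0.61) and Trp63 (−1.59 ± 0.37) gave a limma adjusted p between 0.130 and 0.183.

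The infundibulum and ventral diencephalon, which signal to the pouch, had 9 genes above and 8 below 0 over 4 libraries, with a median of 0.0026, and 1 above and 16 below over 6, with a median of −0.50. Otp and Sim1, hypothalamic neuron factors, differed by 1.13 ± 0.28 and 0.36 ± 0.076 (SE), and Lhx2 and Hes1, factors of forebrain progenitors, by −0.75 ± 0.14 and −0.40 ± 0.083, over 4 libraries, with a limma adjusted p between 0.123 and 0.196, and Otp and Sim1 lay below 0 over 6. Of 8 arcuate neuron genes, 4 were above and 4 below 0 over 4 libraries, with a median of 0.098, and 1 above and 7 below over 6, with a median of −0.64. Isl1, a LIM-homeodomain factor of pituitary, arcuate and motor neurons, differed by 0.51 ± 0.15 and Nhlh2, a bHLH factor of hypothalamic neurons, by 0.57 ± 0.16 over 4 libraries (limma adjusted p = 0.233 and 0.216), and both lay below 0 over 6. Motor neuron and V2 interneuron genes, the other cells that use Lhx3 and Lhx4, had 4 genes above and 3 below 0 over 4 libraries, with a median of 0.49, and 1 above and 6 below over 6, with a median of −0.48. Mnx1 was at 0 in Arl13b-null 1 and 2 and in Wild-type 1 and 2, and Chat in Arl13b-null 1 and 2.

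Jaw and head mesenchyme, another site of Pitx1, had 1 gene above and 11 below 0 over 4 libraries, with a median of −0.46, and all 12 below over 6, with a median of −1.20. Prrx1, a homeodomain factor of craniofacial mesenchyme, differed by −1.15 ± 0.16 (SE) over 4 libraries (limma adjusted p = 0.0782) and by −1.76 ± 1.11 over 6 (0.990). The list summed to 20527, 384 and 23990 normalized counts in Arl13b-null 1 to 3, against 18503, 55440 and 27354 in Wild-type 1 to 3. Barx1, a homeobox gene of first-arch mesenchyme below the filter and named after its values were seen, had 49.6, 0 and 5.54 normalized counts in Arl13b-null 1 to 3, against 0.536, 4.64 and 3.94 in Wild-type 1 to 3. Telencephalic genes had 1 above and 10 below 0 over 4 libraries, with a median of −1.21, and all 11 below over 6, with a median of −1.39. Emx1 at −3.06 ± 0.44 and Emx2 at −1.21 ± 0.17 over 4 libraries are cortical homeodomain factors (limma adjusted p = 0.0803 and 0.0727), and the part of tissue composition in the Pitx1 values was not tested. Dividing cell genes (10 of 10), pan-neuronal genes (8 of 8) and red blood cell genes (6 of 6) were above 0 over 4 libraries, with medians of 0.12, 0.094 and 1.32 and 0 called, where 8384 of all 14249 genes were above 0. An unadjusted limma p under 0.05 was reached by 2, 3 and 6 of these genes, against 14.4% of all genes. Over 6 libraries the dividing cell genes were all below 0 (median −1.06), 5 of 6 red blood cell genes were below 0 (median −0.27) and 7 of 8 pan-neuronal genes were above 0 (median 0.42). The count of 0 called list genes over 4 libraries changed when Arl13b-null 1, Arl13b-null 3 or Wild-type 3 was left out. Each such fit leaves 1 library against 2, so the spread between libraries is seen in the remaining pair alone.

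**Figure D4:**
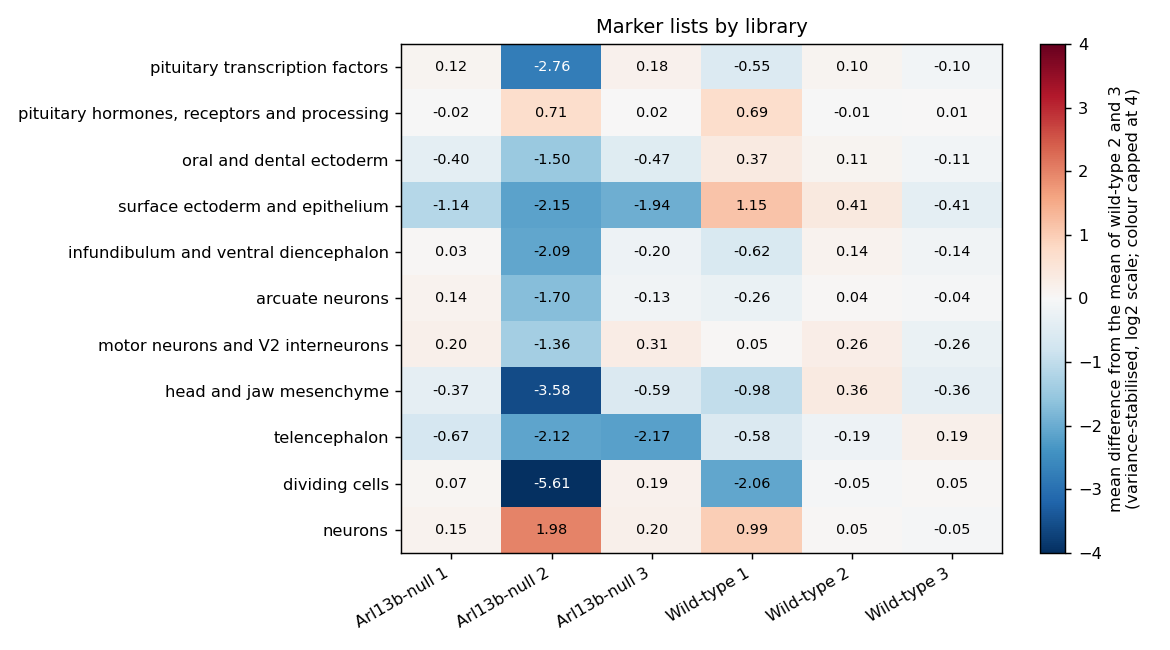
Mean difference of the marker lists from the mean of Wild-type 2 and 3, in variance-stabilised log2 units, for each library (columns, the Arl13b-null libraries left of Wild-type) and list (rows). The red blood cell list is not drawn. Arl13b-null 2 was lowest for dividing cells (−5.61), Arl13b-null 3 lay at −2.17 for the telencephalon list, and Wild-type 1 was highest for surface ectoderm (1.15).

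The genes whose values over the 6 libraries were most like those of the members were named by Pearson correlation, as a description over 6 libraries of which 2 stood apart. Closest to Pitx1 were Kcnk10 (r = 0.994), Ak4 (0.989), Ypel4 (0.988), Kcne3 (0.988) and Slc16a3 (0.988). Slc16a3, a lactate exporter, had 1808, 57.5 and 3387 normalized counts in Arl13b-null 1 to 3, against 318, 587 and 693 in Wild-type 1 to 3, and Kcne3, a potassium channel subunit, had 73.9, 0 and 69.6 against 6.18, 19.7 and 20.3 in the same order. Closest to Lhx4 were Tob2, Acer3, Zfp111, Pcolce and Tmem88 (0.997 to 0.998), and among the closest to Pomc were Aldh1l1, Colgalt2, Zbtb11 and Tll1 (0.988 to 0.997). Aldh1l1, a folate enzyme used as an astrocyte marker, had 434, 223 and 429 normalized counts in Arl13b-null 1 to 3, against 1613, 288 and 224 in Wild-type 1 to 3, and so shared with Pomc its highest value in Wild-type 1. The mean profile of the 3 members kept was closest to Lnpk, Sgce, Cited2, Syt2 and Gfra1 (0.993 to 0.996).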

How the data were processed

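Poly(A) RNA-seq of 6 telencephalon libraries was grouped by genotype from the labels. Values for 24444 symbols, which the authors deposited in a single table, are normalized counts after a variance-stabilising transformation and so lie on a log2 scale. The submitters' processing notes list build mm9 and the tools STAR 2.6.0, CASAVA and Salmon 0.9.1 without saying what each did, and the annotation is not given in the sources used here. The lowest value, 5.13, shared by all libraries, was taken as a count of 0, which fixes the inverse of the parametric transformation. The value of 1 read was the commonest lowest step, and 68.7% to 79.7% of values under 30 reads lay within 0.05 of a whole number, so no count test was run. Estimated depth, 27565022 to 51663114 reads, limits precision at low counts.

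Genes with a mean at least 1 above the lowest value, 14249, entered a linear model in limma 3.58.1, under R 4.3.3 (mean-variance trend, Benjamini-Hochberg adjusted p, threshold 0.05, two-sided), on 6 libraries and on 4 without Arl13b-null 2 and Wild-type 1. No p is given for the members. The fit was tested on simulated data. Members, the 12 lists (139 genes) and the choice of 4 libraries were made with earlier results of these data known. Named genes are the members, 8 further pituitary genes given by symbol, up to 4 genes per list with the smallest p in each fit, and the 5 genes most correlated with each member; some of these are not reported here. Exon lengths are from the GENCODE annotation of GRCm38. Figures were drawn with matplotlib 3.10.9.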

Additional observations from a re-analysis of the deposited data

How the results depend on the processing

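Small groups (2 against 2 in 4 libraries), depth at low counts and single libraries limit these results. Over 4 libraries 36 genes passed in limma, against 1 with no filter, 59 with quantile normalization, 7 with no mean-variance trend and 98 with robust moderation, and between 6 and 725 when 1 library was left out. Over 6 libraries 0 passed, against 3 with no filter, 214 with library weights and up to 4 when 1 library was left out. List genes past the threshold numbered 0 in both comparisons, but 15 over 6 libraries with library weights (1 higher, 14 lower), 2 over 4 libraries with robust moderation (Wnt10a and Wnt10b, limma adjusted p = 0.0394 and 0.0448), and between 0 and 39 over 4 libraries when 1 was left out.

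Over 6 libraries the Pitx1 difference was 1.22 with library weights and −0.54 with inverted counts at a pseudocount of 1. The median member difference over 4 libraries, 0.14, was 0.19 with quantile normalization, and 0.24 and 0.21 with inverted counts at pseudocounts of 1 and 10, and ran from 0.083 to 0.20 when 1 library was left out. Over 6 libraries it ran from −0.21 to 0.087. A filter of 2 above the lowest value left no member. The cause of these shifts was not tested.

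A fit with the replicate number as a block gave 0 genes over 6 libraries. Its median member difference, −0.093, could not change, since each number holds 1 library of each genotype. Deviations from the group means of same-numbered libraries correlated at −0.71, −0.71 and 0.62 for numbers 1 to 3. The sign followed which libraries stood apart: Arl13b-null 2 correlated at 0.71 with Wild-type 1, and Arl13b-null 1 at 0.70 with Wild-type 2. Whether the numbers pair the libraries therefore cannot be told from these correlations.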

Other observations

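Among genes of the lists, Npy, a neuropeptide of arcuate and cortical neurons, had 185, 3269 and 115 normalized counts in Arl13b-null 1 to 3, against 697, 70.4 and 116 in Wild-type 1 to 3. Fgf10, a growth factor that the infundibulum sends to the pouch and that is also made elsewhere in the brain, had 37.2, 515 and 29.6 normalized counts in Arl13b-null 1 to 3, against 91.7, 47.0 and 22.1 in Wild-type 1 to 3. Arl13b-null 2 was thus the highest library for both, while Rax, Fgf8 and Six6 of the ventral diencephalon list were at 0 there. It was also the highest for the sum of the pan-neuronal genes. Npy and Fgf10 were named after their values were seen.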
